A study of Homo sapiens with 11 samples.

Results

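CD44, the cell surface receptor for hyaluronan, was followed in PC-3 cells transfected with duplexes of the miR-373 seed family. It was chosen as the gene whose name in the scanner files is CD44, 1 of 30484 gene names on the array. A single 60-base probe, A_23_P24870, carries that name, so no comparison between CD44 probes by position was possible. Total RNA was measured on 11 one-colour Agilent arrays. PC-3 is an established human prostate carcinoma line, and all samples were taken 24 h after transfection. The mock samples received the transfection reagent with no duplex. The other samples received dsEcad640, an siRNA matching the E-cadherin promoter whose guide carries the seed of the family, or a synthetic duplex of miR-373, miR-520c, miR-372, miR-520f or miR-302a. The labels place the arrays in 3 sets. In set 1, mock sample 1 stands against miR-372 (sample 4), miR-302a (sample 3) and dsEcad640 (sample 2). In set 2, mock sample 8 stands against miR-373 (sample 7) and miR-520f (sample 6). In set 3, mock samples 9 and 11 stand against miR-520c (sample 12) and a second miR-372 array (sample 10). Each array was hybridised with 150 ng of RNA mixed from 4 transfections, so it carries 1 pooled value, and only mock and miR-372 were arrayed more than once. P-values therefore measure the spread between pooled arrays, and the labels do not say whether the mock pools of set 3 came from separate transfections.

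CD44 is a single-pass glycoprotein that binds hyaluronan outside the cell and, through its cytoplasmic tail, the ERM proteins and the actin cytoskeleton. Its transcripts share constant exons and differ by alternatively spliced variable exons, and the protein is cut from the surface by metalloproteinases. In prostate and breast carcinoma cells CD44 is known for its part in adhesion, migration and invasion. miR-373 and miR-520c have been reported to promote invasion of breast cancer cells and to act on CD44 through its 3′ untranslated region. An RNA array measures transcript level alone, so a change in translation would not be seen here.

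The 5 mature miRNAs of the duplexes were matched by name in the RefSeq tables (GRCh38.p14). They are shown because the seed, bases 2 to 8 in capitals, is what the duplexes compared with mock have in common and what sets miR-520f apart.
hsa-miR-373-3p: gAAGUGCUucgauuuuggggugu
hsa-miR-520c-3p: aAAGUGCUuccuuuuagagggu
hsa-miR-372-3p: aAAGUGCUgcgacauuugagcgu
hsa-miR-302a-3p: uAAGUGCUuccauguuuugguga
hsa-miR-520f-3p: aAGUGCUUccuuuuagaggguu

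The first 4 shared the seed AAGUGCU. In miR-520f the same 7 letters begin at base 1, so that its seed is shifted by a base and reads AGUGCUU. Over the first 22 bases miR-520c had the same base as miR-373 at 15 positions, miR-372 at 15 and miR-302a at 17. The mature miR-373 lies at chr19:53788748-53788770 on the + strand, with the mature miR-372 at chr19:53787931-53787953. The mature miR-520c lies at chr19:53707506-53707527 and miR-520f at chr19:53682213-53682234, whereas miR-302a lies at chr4:112648186-112648208 on the − strand. The 4 miRNAs with this seed, together with dsEcad640, form the common-seed duplexes. Sites for the seed in the CD44 transcript were not analysed here.

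The CD44 probe was annotated to transcript variant 1 and placed at chr11:35207510-35207569 in hg18, the build of the scanner headers. It was spotted 10 times on each array, and its spots were well above background on all 11 arrays, with 0 saturated. In the unscaled processed signal, the median over the spots was 6451 in mock sample 1, 10226 with dsEcad640, 7758 with miR-302a and 9088 with miR-372 in set 1. In set 2 it was 7762 with miR-520f, 8518 with miR-373 and 7041 in mock sample 8. In set 3 it was 15368 in mock sample 9, 21125 with miR-372, 18253 in mock sample 11 and 17161 with miR-520c. Set 3 was the bright set, and within it the unscaled miR-520c signal lay between the mock arrays.

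Levels were then compared as log2 signal minus the 75th percentile of each array. On this scale CD44 was at 3.67 in mock sample 1, 3.95 with dsEcad640, 3.87 with miR-302a and 3.74 with miR-372 sample 4. It was at 3.67 with miR-520f, 3.76 with miR-373 and 3.76 in mock sample 8. In set 3 it was at 3.95 in mock sample 9, 4.36 with miR-372 sample 10, 4.20 in mock sample 11 and 4.63 with miR-520c. The SD between spots of an array was 0.07 to 0.12, the 4 mock arrays averaged 3.90 ± 0.23 (SD, n = 4), and the mock and common-seed levels overlapped. The mock arrays that share set 3 lay 0.24 apart. Ordered by level, the only neighbours further apart than that gap were miR-372 sample 10 and miR-520c, at 0.27. Within an array the CD44 probe was at or above 92.5% to 94.8% of the 27135 probes that passed the filter on dim signals, a rank of signals that does not order transcripts by abundance, since probes differ in affinity. In RNA from a culture, fewer cells of a type and less RNA per cell cannot be told apart.

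**Figure D1:**
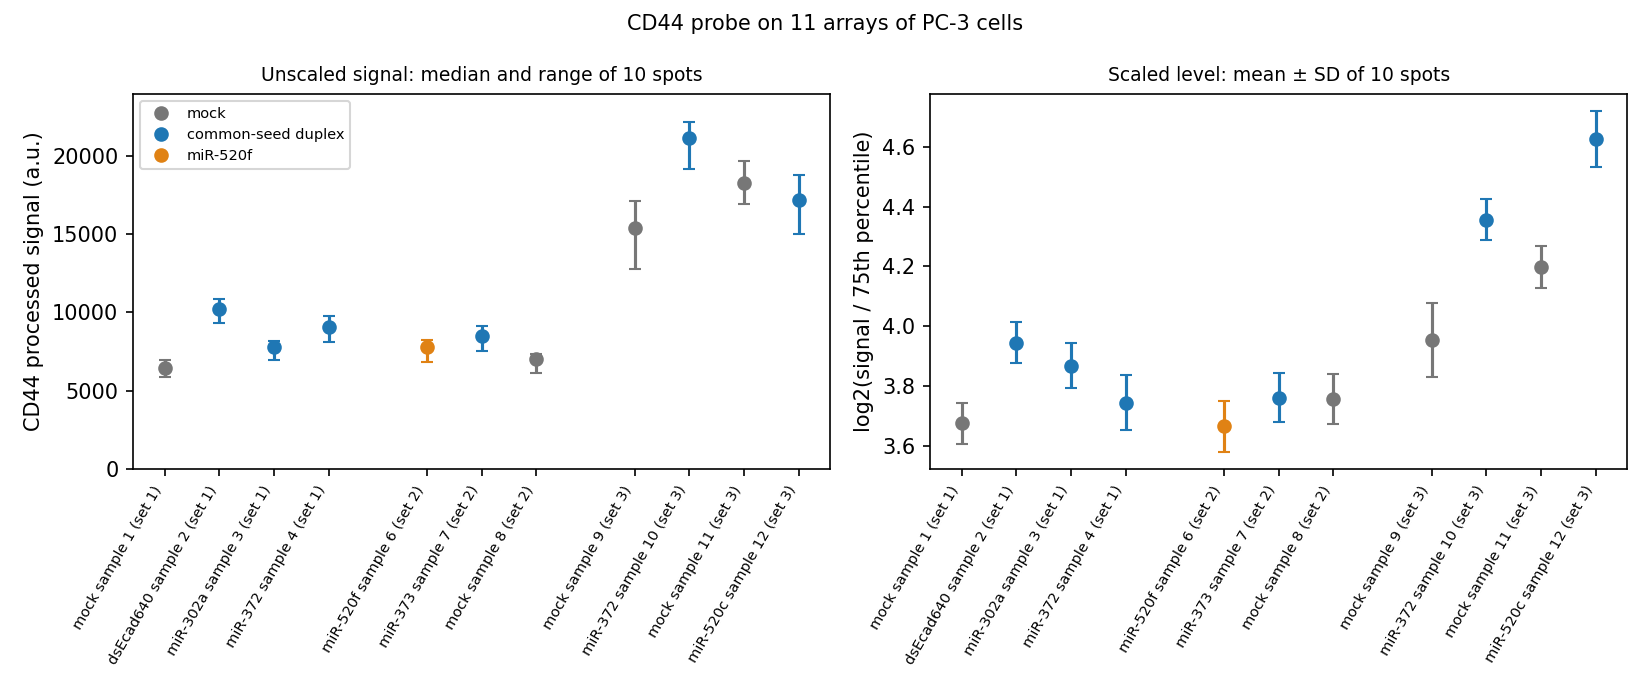
The CD44 probe on each array, grouped by set: left, unscaled processed signal as the median with the range of the 10 spots; right, log2 signal minus log2 of that array’s 75th percentile, as mean ± SD of the 10 spots. Set 3 is brightest, and miR-520c is the top array after scaling (4.63) but lies between the mock arrays of its set before it (17161 against 15368 and 18253).

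The identity of the cells was checked with marker genes. All 4 epithelial markers, KRT8, KRT18, KRT19 and EPCAM, were well above background on all 11 arrays. CD44 is abundant in leukocytes and fibroblasts. Of the 10 markers of leukocytes, fibroblasts and endothelial cells, 3 were well above background on all 11 arrays (CD3E, COL1A1 and PECAM1), CDH5 on 0, LUM on 1 and PTPRC on 1, the array of miR-372 sample 4. Their summed signal, as a multiple of each array’s 75th percentile, was 0.375 to 0.522 in mock, 0.426 to 1.66 with the common-seed duplexes and 0.886 with miR-520f. The value of 1.66 belonged to miR-372 sample 4, where 88.1% of probes were well above background, whereas the share was 54.5% to 72.9% elsewhere. PTPRC, the pan-leukocyte phosphatase, was not well above background on the other 10 arrays.

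Whether the duplexes of the common seed lowered CD44 RNA was examined first within each set. CD44 did not lie below the mock level of its set with any common-seed duplex on this scale, although other scalings put miR-373 just below it (−0.00137 by quantile normalization, −0.03 centred on probes of like signal) and median scaling put miR-372 sample 4 at −0.80. For miR-373, CD44 was 0.01 above mock on the log2 scale, or 1.00-fold, with a standard error between spots of 0.04. Among all probes kept, 58.3% had a lower difference from mock on that array. For miR-520c, CD44 was 0.55 above the mean of its mock arrays, or 1.46-fold. It lay 0.67 above mock sample 9 and 0.43 above mock sample 11, and 84.4% of probes had a lower difference. The 75th percentile of the miR-520c array was 697, against 984 to 1019 on the other arrays of set 3. Whether this bears on the difference was not tested. Centred instead on 948 probes with a mean level within 0.5 of that of CD44, an alternative added after the data were seen, the miR-520c difference was 0.40. It was 0.32 after quantile normalization and 0.30 in the authors' normalized table. With normexp background correction it was 0.50 and with median scaling 0.57, near the main value. The gap between the mock arrays of set 3 was 0.24 on the 75th percentile scale and 0.23 with normexp. It was 0.12 centred on probes of like signal, 0.13 after quantile normalization and 0.13 in the authors' table. Each gap was below the miR-520c difference on the same scale, and none was taken for median scaling.

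The remaining duplexes gave smaller differences. CD44 was 0.27 above mock with dsEcad640, 0.19 above with miR-302a, and 0.07 and 0.28 above with miR-372 samples 4 and 10, so that dsEcad640 and miR-372 sample 10 also lay above the mock gap of 0.24. With miR-520f, the duplex of the shifted seed, CD44 was 0.09 below mock. In set 2 the miR-373 array lay 0.10 above the miR-520f array. Taken within its set, a single array carries no error between transfections, so these differences are given here as values; a fit that borrows the spread of the replicated arrays follows further on. Of all probes kept, the share above mock was 42.6% for miR-373, 54.4% for miR-520c, 44.7% for dsEcad640, 49.1% for miR-302a, 65.5% and 53.1% for miR-372 samples 4 and 10, and 39.7% for miR-520f.

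**Figure D2:**
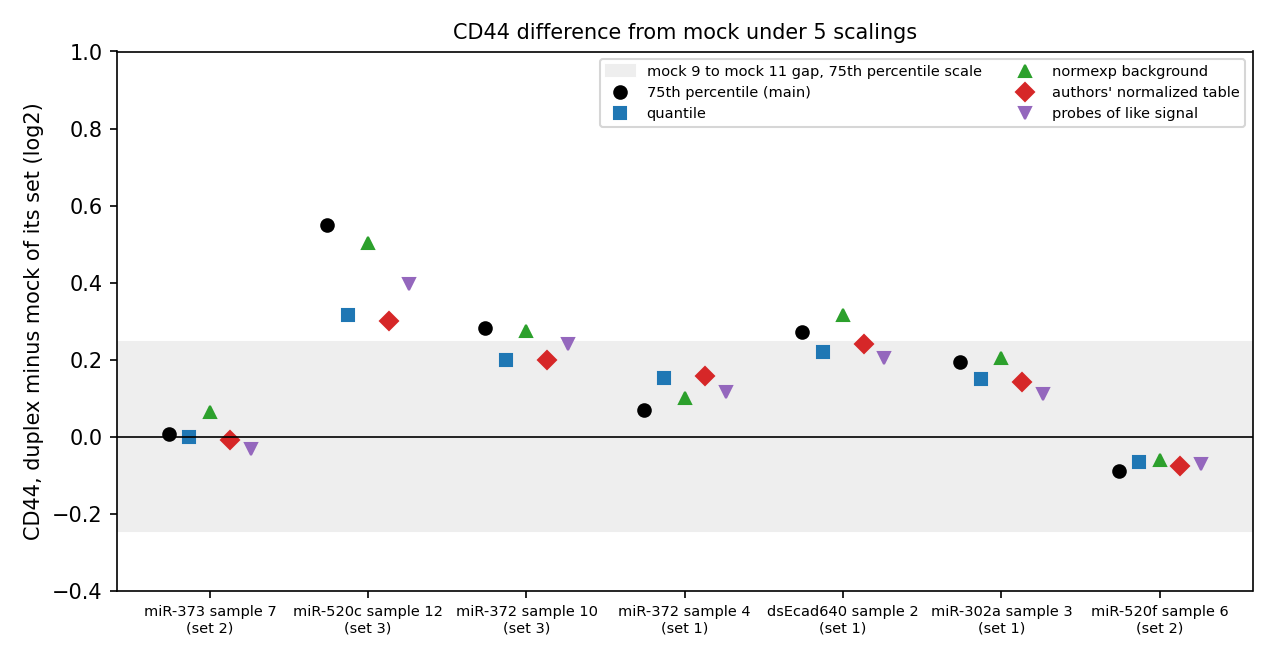
CD44 on each duplex array minus the mock arrays of its set (log2), under 5 scalings; the grey band is the gap of 0.24 between the mock arrays of set 3 on the 75th percentile scale, drawn to both signs, and applies to the black points. On that scale miR-520c (0.55), miR-372 sample 10 (0.28) and dsEcad640 (0.27) are above the band, miR-373 lies near 0 and miR-520f slightly below it.

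The 6 common-seed arrays were then compared with the 4 mock arrays with the set as a block. CD44 was higher by 0.25 ± 0.11 (SE), that is 1.19-fold with a 95% interval from 0.993 to 1.41, and the difference did not pass the test (limma, adjusted p = 0.256). CD44 was above the mock level of its set on 6 of 6 arrays, which held for 16.6% of all probes. An exact permutation of the labels within sets, two-sided over 48 arrangements, gave p = 0.0417, where the smallest possible was 0.0208. Of 26972 probes measured on all these arrays, 20.7% reached a p as low or lower, so CD44 did not stand out by this test. The difference of CD44 was above that of 79.2% of probes, and the median of all probes was 0.03. By set, the mean of the common-seed arrays minus mock was 0.18 in set 1, 0.01 in set 2 and 0.42 in set 3. With sets 1 and 2 alone it was 0.11 (limma, adjusted p = 0.718), and with miR-520c left out it was 0.17 (limma, adjusted p = 0.429). Without the set block it was 0.15 (limma, adjusted p = 0.841).

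Over all probes, this comparison called 1137 of 27135 at an adjusted p under 0.05, or 4.19%, with 551 lower (2.03%) and 586 higher (2.16%). At an unadjusted p under 0.05 it was 21.1%. This number depended on the arrays used, since 24 probes were called without mock sample 1 and 1925 without miR-372 sample 4. CD44 was called in neither. Mock sample 1 is the only mock array of set 1, so without it the whole of set 1 adds nothing to the estimate.

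Each duplex was also fitted by itself, with the spread taken from the replicated mock and miR-372 arrays and only 2 residual degrees of freedom. miR-373 gave 0.01 with an interval of 0.626 to 1.61 times mock (limma, adjusted p = 1.00), and miR-520c gave 0.52 with an interval of 0.962 to 2.14 times mock (limma, adjusted p = 0.316). These intervals are wide, so for miR-373 neither a moderate decrease nor a moderate increase lies outside them. dsEcad640 gave 0.33, miR-302a 0.25, miR-372 0.19 and miR-520f −0.09, with adjusted p-values in limma of 0.666 to 0.966. No probe passed in any of the 6 comparisons (0 called, 0%), while 964 to 4590 probes had an unadjusted p under 0.05. miR-373 and miR-520c lie in different sets and share no mock array, and their difference was not tested.

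Other genes reported as targets of miR-373 or miR-520c show what the same arrays recorded elsewhere. Of the 9 such genes, 14 probes passed the filter. Of these, 4 probes of 3 genes were called, all lower, or 28.6%. Among all probes 4.19% were called in either direction and 2.03% were called lower. The list was chosen with earlier results of these data known, so its share is not independent support. The median of the list was −0.23. TGFBR2, the type II receptor of TGF-beta, was at 2.88, 2.90, 3.25 and 3.17 on mock samples 1, 8, 9 and 11. It was at 0.75 with dsEcad640, 0.99 with miR-302a, 0.94 and 1.35 with miR-372, 1.44 with miR-373 and 1.00 with miR-520c. It fell by 1.89 on the log2 scale, to 0.270 of mock (SE 0.13, limma, adjusted p = 0.00134). Its second, dim probe was lower by a value that missed the threshold (−0.92, limma, adjusted p = 0.141), and it was called under quantile normalization (adjusted p = 0.00566) and without miR-372 sample 4 (adjusted p = 0.00392).

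LATS2, a kinase of the Hippo pathway, was lower by both of its probes, to 0.422 and 0.424 of mock (limma, adjusted p = 0.00304 and 0.00550). On the first it was −0.74, −0.77, −0.48 and −0.58 on mock samples 1, 8, 9 and 11, against −2.07 with miR-373 and −1.94 with miR-520c. RELA, the p65 subunit of NF-kappaB, fell to 0.499 of mock (limma, adjusted p = 0.00581). The RELA call was lost without the set block (adjusted p = 0.0792) and without mock sample 1 (adjusted p = 0.0643), and the call of the first LATS2 probe was lost without mock sample 1 (adjusted p = 0.0511). Without mock sample 1, set 1 has no mock array and adds nothing to these estimates. miR-520f was also below its mock for these genes, by −1.17 for TGFBR2, −1.08 for RELA, and −0.51 and −0.16 for the LATS2 probes.

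The other 6 genes of the list had no probe past the test. CDKN1A, the cell cycle inhibitor p21, was at −0.40 by its brighter probe (limma, adjusted p = 0.206), which was called without miR-372 sample 4 (−0.47, adjusted p = 0.0491). TXNIP, the inhibitor of thioredoxin, was at −0.18, and the repair gene RAD52 at −0.21. MTOR was at 0.13, the deacetylase SIRT1 at 0.22, and the 3 probes of the repair gene RAD23B at −0.02 to 0.35. CD44 at 0.25 lay on the side of the latter group, and all 6 of its within-set differences were above 0. Those of the called LATS2, RELA and TGFBR2 probes were all below 0. These probes were picked by the same comparison, so that sign adds nothing to their calls.

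**Figure D3:**
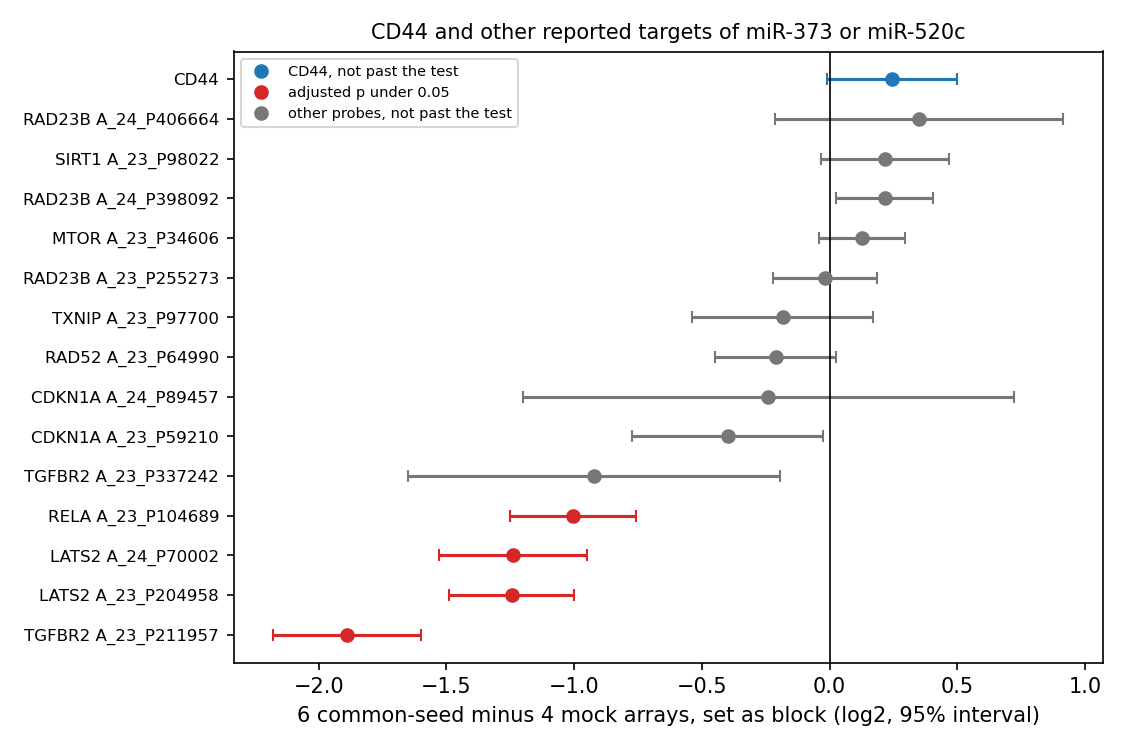
Difference between 6 common-seed and 4 mock arrays with the set as a block (log2, 95% interval) for CD44 and the 14 probes of other genes reported as targets of miR-373 or miR-520c. TGFBR2, LATS2 and RELA are the red points, down to −1.89, while CD44, at 0.25, has an interval that spans 0.

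The genes that make, bind or process the CD44 axis were taken in order of role. Of 7 such lists, 93 probes passed the filter and 0 were called by limma in either direction, where 4.19% of all probes were called. At an unadjusted p under 0.05 there were 8 lower and 6 higher, 15.1% against 21.1% of all probes. Named genes are given by their brightest probe, with other probes where stated. Among all probes, 16.6% were above the mock level of their set on 6 of 6 common-seed arrays and 11.4% were below it on 6 of 6. The 3 common-seed arrays of set 1 share 1 mock array, so such counts are not independent. For hyaluronan synthesis, 0 of 5 probes were called and the median difference was −0.13. HAS3, the synthase with the brightest probe, was at −0.16 (SE 0.32) by that probe and 0.32 by its second, UGDH, which makes the precursor UDP-glucuronic acid, at −0.15, and HAS2 at 0.11. For hyaluronan breakdown, 0 of 6 probes were called. The hyaluronidases HYAL2 and HYAL3 were at 0.01 and −0.20. TMEM2, a cell surface hyaluronidase, was at −0.43 and below mock on 6 of 6 arrays (limma, adjusted p = 0.0750), and it was called where only probes well above background on all 11 arrays were tested (adjusted p = 0.0418). CEMIP, a hyaluronan-binding protein, lay the other way, at 0.63 (SE 0.37) and above mock on 6 of 6 arrays (limma, adjusted p = 0.394).

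Among ligands and other hyaluronan receptors, 0 of 5 probes were called. SRGN, the proteoglycan core serglycin, was at −0.14, HMMR, the receptor for hyaluronan-mediated motility, at −0.01 and the adhesion molecule ICAM1 at −0.15. Among the cytoskeletal linkers of the CD44 tail, 0 of 20 probes were called. Moesin, MSN, was at −0.19 and below mock on 6 of 6 arrays, and its other probes ranged from −0.26 to 0.03. Ezrin, EZR, was at 0.16 and above mock on 6 of 6, with its dim second probe at −0.19. Merlin, NF2, was at 0.29, while its other probes ranged from −0.13 to −0.01. Among sheddases, proteases and their inhibitors, 0 of 12 probes were called, with the sheddase ADAM17 at −0.12 and the inhibitors TIMP1 and TIMP2 at −0.19 and −0.16. The dimmer ADAM17 probes were at −0.26 and 0.06.

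Among the co-receptors, 0 of 14 probes were called and the median was 0.08. MET, the receptor of hepatocyte growth factor and a partner of CD44, was at 4.28, 4.36, 4.59 and 4.77 on mock samples 1, 8, 9 and 11, and at 4.73 with dsEcad640, 4.66 with miR-302a, 4.55 and 5.08 with miR-372, 4.53 with miR-373 and 5.59 with miR-520c. The groups overlapped over all sets, but this MET probe was above the mock level of its set on 6 of 6 arrays, by 0.45 ± 0.13 (SE, limma, adjusted p = 0.102). The dimmer MET probes were at 0.10 and 0.18 and above mock on 5 of 6 arrays each (limma, adjusted p = 0.790 and 0.414). ERBB2 was at −0.10. The probes of ITGB1, the integrin beta 1 chain, disagreed: the brightest was at 0.05, while the other 3 were at −0.38, −0.54 and −0.36 and below mock on 5, 6 and 5 of 6 arrays (limma, adjusted p = 0.182, 0.197 and 0.222). Among regulators of CD44 splicing, 0 of 31 probes were called and the median was 0.00. HNRNPA1 was at 0.31 (limma, adjusted p = 0.0597) and was called where only probes well above background on all 11 arrays were tested (adjusted p = 0.0360), although the probes of HNRNPA1 ranged from −0.16 to 0.31. PTBP1, a splicing repressor added after its values were seen, was at 0.39 and above mock on 6 of 6 arrays (limma, adjusted p = 0.0835), and it too was called with that filter (adjusted p = 0.0483). HNRNPM was at 0.24 and YBX1 at −0.13.

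**Figure D4:**
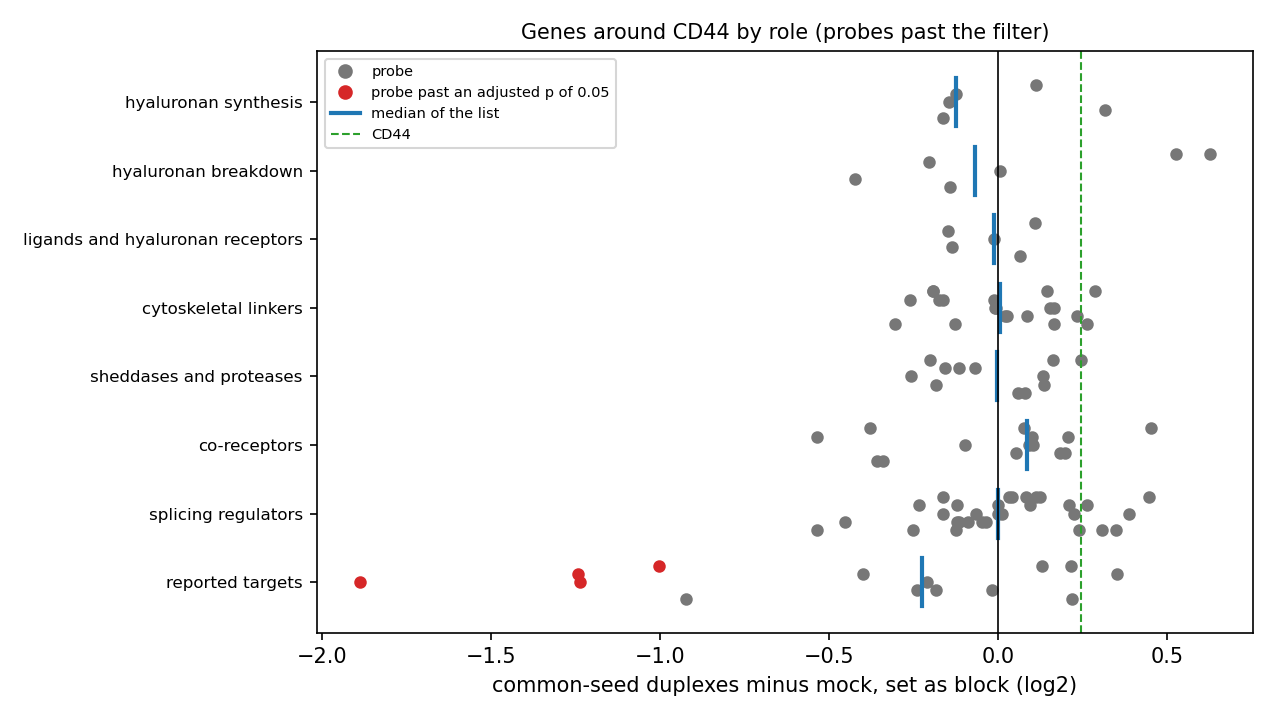
Difference between common-seed and mock arrays (log2, set as a block) for each probe of 8 gene lists around CD44; blue bars are list medians, the green line is CD44 at 0.25, and red points passed an adjusted p of 0.05. The 4 red points all lie in the list of reported targets, and the medians of the other 7 lists lie between −0.13 and 0.08.

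Splice forms of CD44 could hardly be read from these arrays. A probe for a soluble CD44 transcript with an extension of variable exon v9, at chr11:35188205-35188264 (hg18), was well above background on 2 of 11 arrays. One with an extension of v10, at chr11:35189313-35189372, was so on 4. Both lie upstream of the CD44 probe, by 19.3 kb and 18.2 kb, were spotted once and did not pass the filter. A further probe, for the unnamed transcript BX415272, is placed 2.07 kb downstream and listed with descending coordinates. Only 5 bases are listed for it, against 60 for the CD44 probe, so its place and order rest on a short stretch. It was well above background on 9 arrays, at −5.16 to −2.63, and its common-seed difference was −0.58 ± 0.35 (SE, limma, adjusted p = 0.402). It cannot stand for CD44, since the files do not name it so.

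The genes with a pattern most like CD44 over the 11 arrays were ranked by Pearson's r after the mean of each set was subtracted. All points share the scaling of each array, and over all 26918 probes the 5th to 95th percentile of r ran from −0.78 to 0.85, so r was high for many probes. The nearest were PRDX6, a peroxiredoxin (0.988), YWHAB, a 14-3-3 protein (0.987), NSUN5C (0.980), RAD21, a cohesin subunit (0.979), and CASC3, a component of the exon junction complex (0.978). NSUN5C has near-identical copies, and its probe is uncertain. Lowest were ZDHHC21 (−0.972), ANKRA2 (−0.971) and the transcript AK131430 (−0.970). PRDX6 and YWHAB stayed first and second without miR-372 sample 4, but ranked 589 and 4215 when set means were not subtracted.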

How the data were processed

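Per the labels, Cy3-labelled cRNA was hybridised to a whole human genome array and the authors read the scans with Agilent Feature Extraction 10.5.1.1. The deposited scanner files hold the processed signal, an intensity after background subtraction. The deposited series table holds log2 values whose column medians are 8.24 in set 1, 8.82 in set 2 and 8.51 in set 3; these are nearly equal within each set, the normalization is not given in the sources used here, and the values served as an alternative within sets only. Outlier spots (52 to 209 per array) and control spots were left out, log2 intensities were reduced by each array's 75th percentile, and spots of a probe were averaged. Probes well above background on at least 6 of 11 arrays were kept (27135 of 41000). Signal over background and the number of arrays limit the precision.

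Differences were fitted in limma 3.58.1 (R 4.3.3) with the set as a fixed block and Benjamini-Hochberg adjustment over all probes kept, and the script was tested on simulated data. Alternatives were no block, quantile normalization, normexp with an offset of 50, other filters, other scalings and leaving out arrays. From each list, genes past the test were named, otherwise up to 3 with the brightest mock signal, with the brightest probe of a gene; the 5 highest and 3 lowest r were named likewise. Reported targets past neither rule, CD44-locus probes and other members given were added for completeness. The gene and the lists were chosen with earlier results of these data known. The title of sample 6 reads miR-530f, but its other labels read miR-520f, which was used. Exon and UTR positions were not analysed here, since no annotation of hg18 was used.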

Additional observations from a re-analysis of the deposited data

Results flagged for a closer look

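In 52 checks for a sample far from the rest of its group, made on CD44 and the named genes in mock (4 arrays) and common-seed (6 arrays), 7 were past the 95% limit of Dixon's test, where chance gives about 1 in 20; CD44 was past it in neither group. HAS3 was low on mock sample 11, at 2.17 (next value 3.49), and on miR-520c, at 2.24 (next value 3.14). ICAM1 was high on mock sample 11, at −0.42. Ezrin was high on miR-520c, at 3.04, and YBX1 was low there, at 6.03. ERBB2 was low on mock sample 11, at 0.744, and TIMP2 was low on mock sample 9, at 3.08. All 7 were on arrays of set 3, and 6 of the 7 were on mock sample 11 or miR-520c.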

How the results depend on the processing

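CD44 was not called for the common-seed duplexes under any of 17 alternatives (0.11 to 0.31, adjusted p 0.179 to 0.841 in limma; 0.17 to 0.31 with one array left out). For each duplex alone no alternative passed either, but the direction turned without the set block for miR-302a (−0.0282) and miR-373 (−0.13), and under quantile normalization for miR-373 (−0.00137). Against the mean of all 4 mock arrays, within-set differences became 0.0495 for dsEcad640, −0.0282 for miR-302a, −0.15 and 0.46 for miR-372 samples 4 and 10, and 0.73 for miR-520c. Median scaling gave −0.80 for miR-372 sample 4, the array with the largest share of probes above background. For miR-520c the difference was 0.32 by quantile normalization and 0.30 in the authors' table, but 0.50 with normexp and 0.57 with median scaling. Probes called over the array numbered 382 without the block, 222 without a filter, 2099 with probes above background on all 11 arrays, and 24 to 1925 with one mock or miR-372 array left out. The 24 came without mock sample 1, where set 1 has no mock array and adds nothing to the estimate. Called list probes numbered 7 with that stricter filter and 2 to 6 with one mock or miR-372 array left out; no other array was left out for these counts. Except where a value shows it, the cause was not tested. No paired analysis was possible because each sample number belongs to a single array; the set block is the closest match, and without it CD44 was at 0.15. Without mock sample 8, miR-373 and miR-520f had no mock array and were not run; a mean over CD44 probes was not run, as there is 1 probe. Depth is not a quantity of arrays; what limits the values is 1 pooled array for most duplexes.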
